A study of Rattus norvegicus with 11 samples.

Results

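The interferon response genes described here were Stat2, Irf1, Irf7, Irf9, Isg15, Mx1, Rsad2, Ifit2 and Ifit3, chosen by symbol from the gene table of the series. All 9 were found among the 30560 genes of that table, and 7 of them held enough reads to be tested. RNA of the striatum was sequenced from 11 adult male Sprague-Dawley rats at day 3, with 1 library per rat. The 3 IC rats, a model of common intracerebral hemorrhage, had been injected with 0.2 U of bacterial collagenase VII-S in 1.0 μL of saline, an enzyme that ruptures vessels at the injection site. The 3 IS rats, a model of severe hemorrhage, received 0.6 U in 3.0 μL, so dose and volume rose together. The 3 IS-HA rats received the IS dose and had 150 μL of the hematoma drawn off through a catheter at 6 h. The 2 Normal rats served as controls, and no saline injection is described for them, so hemorrhage and the injection itself cannot be told apart in comparisons with Normal. The IS-HA rats also had a second anesthesia and a catheter track, which cannot be told apart from removal of the hematoma.

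Type I interferons signal through a receptor and Janus kinases to a complex that includes STAT2 and IRF9 and binds the interferon-stimulated response element (ISRE) of target genes. Genes induced by interferon gamma often carry the gamma-activated site (GAS), and IRF1 is an early product of that response. In the brain these genes are induced in microglia, infiltrating leukocytes, astrocytes and endothelium during infection and sterile injury. Within the set, Stat2 and Irf9 encode the transducers, Irf1 and Irf7 encode transcription factors that extend the response, and the others encode antiviral effectors.

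Promoter sequences of Irf1, Irf7, Rsad2 and Ifit3 are shown because these tested members held a match to at least 1 of the elements searched. They are RefSeq sequences of the rat build GRCr8, running from 250 bases before to 50 bases after the gene start, 5′ to 3′ on the gene's strand, with the matches in capitals. The searched core of the ISRE was GAAA, any 2 bases and GAAA, or TTTC, any 2 bases and TTTC for the other strand. The searched GAS was TTC, any 3 bases and GAA, which reads the same on both strands. Irf1 lay at chr10:38417685-38417984 on the plus strand, Irf7 at chr1:205799974-205800273 on the minus strand, Rsad2 at chr6:48788071-48788370 on the minus strand and Ifit3 at chr1:241527076-241527375 on the plus strand.
Irf1: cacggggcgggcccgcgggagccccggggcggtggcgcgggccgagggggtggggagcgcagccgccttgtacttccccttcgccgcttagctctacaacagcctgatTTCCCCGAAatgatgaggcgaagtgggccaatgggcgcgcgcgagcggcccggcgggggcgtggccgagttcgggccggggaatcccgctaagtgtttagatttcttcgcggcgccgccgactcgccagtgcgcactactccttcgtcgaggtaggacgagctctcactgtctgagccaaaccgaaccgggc
Irf7: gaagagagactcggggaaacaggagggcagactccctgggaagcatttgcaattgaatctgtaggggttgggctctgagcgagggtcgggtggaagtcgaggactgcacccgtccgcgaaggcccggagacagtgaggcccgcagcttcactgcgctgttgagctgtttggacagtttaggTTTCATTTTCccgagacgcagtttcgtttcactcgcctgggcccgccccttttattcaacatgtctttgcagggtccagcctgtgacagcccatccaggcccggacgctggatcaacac
Rsad2: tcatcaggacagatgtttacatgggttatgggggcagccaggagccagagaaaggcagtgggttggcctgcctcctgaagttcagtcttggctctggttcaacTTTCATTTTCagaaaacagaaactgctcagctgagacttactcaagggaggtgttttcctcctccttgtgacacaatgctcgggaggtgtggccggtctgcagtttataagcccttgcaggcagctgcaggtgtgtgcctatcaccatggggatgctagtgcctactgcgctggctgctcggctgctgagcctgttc
Ifit3: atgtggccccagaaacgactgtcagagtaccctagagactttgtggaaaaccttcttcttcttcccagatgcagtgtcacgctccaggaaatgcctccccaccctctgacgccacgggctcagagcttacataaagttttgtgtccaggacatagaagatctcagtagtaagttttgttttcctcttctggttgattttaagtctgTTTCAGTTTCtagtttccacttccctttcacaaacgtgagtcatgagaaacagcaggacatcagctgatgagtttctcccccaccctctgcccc
The GAS match of Irf1 stood 142 to 134 bases before the start. The ISRE core stood 69 to 60 bases before the start in Irf7, 147 to 138 bases before it in Rsad2 and 44 to 35 bases before it in Ifit3. Irf7 and Rsad2 carried the same 10 letters. Among all 33469 rat promoters of 300 bases, 3.92% held the ISRE core and 8.87% held the GAS. Irf9 had a GAS match 99 to 91 bases before its start, the promoters of Stat2 and Mx1 held neither pattern, and Isg15 and Ifit2 had no entry. These are matches of letters, and binding was not measured.

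The libraries held 6701301 to 18817645 reads assigned to genes, with the fewest in IS-HA replicate 2 and the most in IC replicate 3. Levels are given as TPM, reads per gene length scaled to the same sum in each library, or as CPM, reads scaled by depth alone. Differences are log2 fold changes from edgeR's quasi-likelihood test on the counts, fitted once to the 11 rats. A gene is called where the Benjamini-Hochberg adjusted p over the 15742 genes tested is under 0.05 and the log2 fold change is at least 1 in size. The 3 comparisons with Normal share the same 2 control rats. In whole tissue, fewer cells of a type and less RNA per cell cannot be told apart.

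Isg15 (ENSRNOG00000069527), which encodes a ubiquitin-like modifier, was listed at 0 reads in all 11 libraries. The 141462959 reads of these libraries allow a level of up to 0.0212 CPM at a floor of 3 reads, a limit that covers counting error only. Irf9 (ENSRNOG00000019478) had 0 to 6 reads per library and 37 in all. Its level was 0.308 ± 0.053 TPM in Normal (SD, n = 2), 0.353 ± 0.138 in IC, 0.341 ± 0.270 in IS and 0.170 ± 0.175 in IS-HA (SD, n = 3 each). The groups overlapped, and a difference in Irf9 was not detectable at this depth. The reads of both genes depend on the gene models that the authors counted against, and whether those models take up all reads of the transcripts was not tested.

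In IC against Normal, 4 of the 7 tested members rose, namely Irf1, Irf7, Mx1 and Rsad2, and none fell. Of all genes tested, 10.9% were called higher in IC and 2.66% lower. The median log2 fold change of the 7 members was 1.79, beside 0.00 over all genes tested. In IS against Normal, Irf1 and Ifit3 rose, where 18.8% of all genes were called higher and 17% lower, and the members' median was 1.64 beside 0.02 over all genes. In IS-HA against Normal, Irf1 and Ifit2 rose, where 15.1% of all genes were called higher and 7.71% lower, and the medians were 1.46 and 0.06. Without IS-HA replicate 2 the members' median in IS-HA was 0.56, and without Normal replicate 1 that in IS was 1.09. In this edgeR fit, Irf1 was the 1 member called in all 3 comparisons with Normal. Irf7, Mx1 and Rsad2 were called in IC alone, Ifit3 in IS alone and Ifit2 in IS-HA alone, which is not a test of the difference between hemorrhage groups. Those sets moved with the method. In IC against Normal, DESeq2's Wald test called 6 of the 8 members it tested higher, as it did 1886 of 21857 genes. An edgeR fit of only the groups compared also called 6 members higher, as it did 2023 of 15742 genes.

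**Figure D1:**
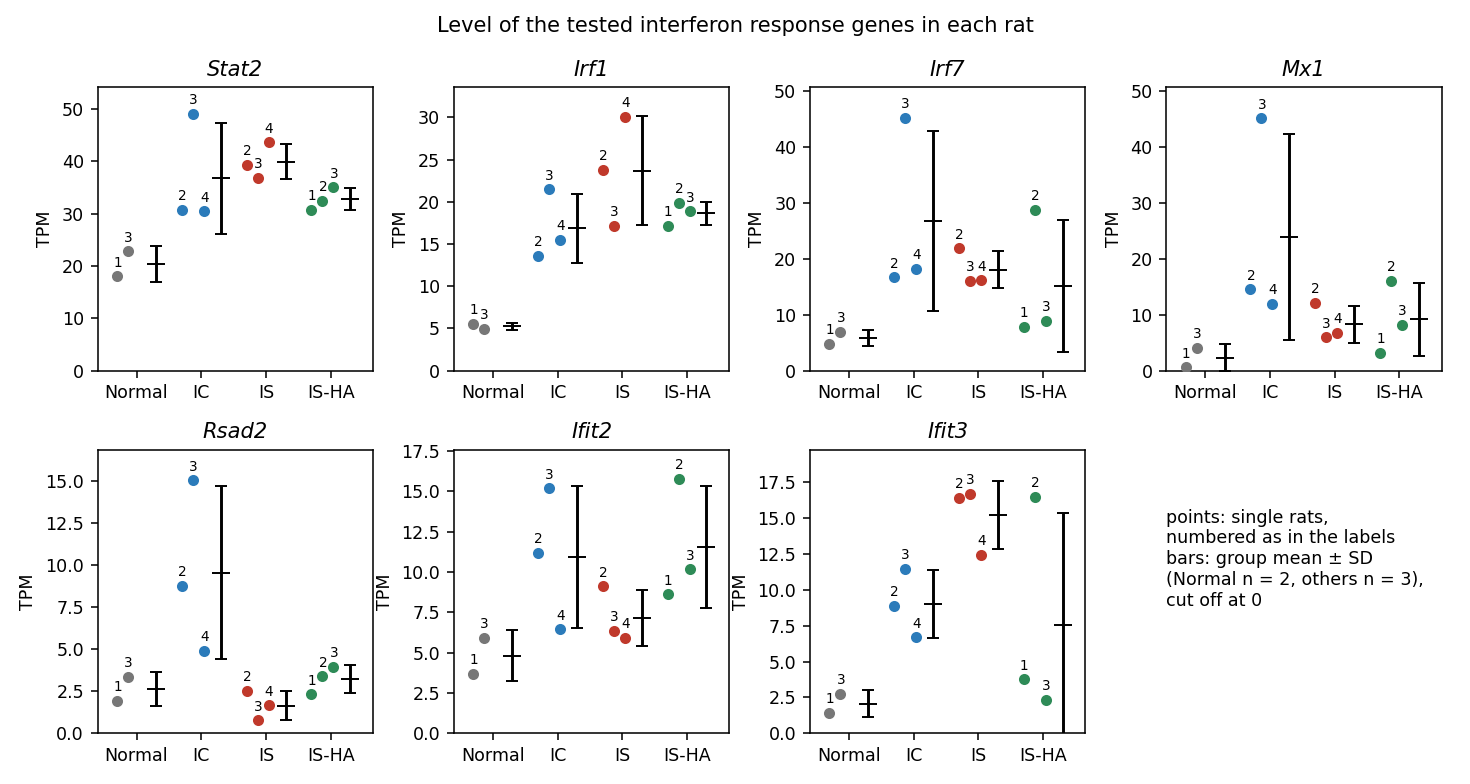
TPM of the 7 tested members in each rat, with points numbered by replicate and bars for the group mean ± SD (Normal n = 2, others n = 3), cut off at 0. IC replicate 3 is the highest IC rat in all 7 panels, and IS-HA replicate 2 is the highest IS-HA rat in 5.

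Stat2 (ENSRNOG00000031081) is the transducer that binds IRF9. It had the highest mean TPM of the members in every group. Its level was 18.0 and 22.8 TPM in Normal replicates 1 and 3, and 30.7, 49.0 and 30.4 in IC replicates 2, 3 and 4. It was 39.4, 36.9 and 43.6 TPM in IS replicates 2, 3 and 4, and 30.7, 32.4 and 35.0 in IS-HA replicates 1, 2 and 3. All 9 hemorrhage rats stood above both Normal rats, and every IS-HA rat stood below every IS rat, as for 6.37% of all genes tested, whereas IC overlapped both. The log2 fold change against Normal was 0.79 in IC (SE 0.23, adjusted p = 0.0366), 1.00 in IS (SE 0.23, adjusted p = 0.00514) and 0.68 in IS-HA (SE 0.23, adjusted p = 0.0411). All 3 adjusted p were under 0.05, but each change, including 0.995 in IS, was below the fold cutoff. In IS-HA against IS the difference was -0.31 (SE 0.20, adjusted p = 0.624), not past the test, and in TMM-scaled CPM those groups overlapped.

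Irf1 (ENSRNOG00000008144), a transcription factor induced by interferon gamma, was the member called in all hemorrhage groups. Its level was 5.55 and 4.99 TPM in Normal replicates 1 and 3. It was 13.6, 21.5 and 15.5 TPM in IC replicates 2, 3 and 4, and 23.8, 17.2 and 30.1 in IS replicates 2, 3 and 4. The IS-HA rats had 17.1, 19.9 and 18.9 TPM in replicates 1, 2 and 3. The lowest hemorrhage rat stood above the higher Normal rat, and the order of the means was IS, IS-HA, IC and Normal, with IS, IS-HA and IC overlapping. The log2 fold change against Normal was 1.62 in IC (SE 0.32, adjusted p = 0.00575), 2.18 in IS (SE 0.32, adjusted p = 0.000496) and 1.82 in IS-HA (SE 0.32, adjusted p = 0.00229). The call in IC was lost without Normal replicate 3, with an adjusted p of 0.0871 at a log2 fold change of 1.48. The calls in IS and IS-HA held in every fit that left out 1 rat.

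Irf7 (ENSRNOG00000017414) encodes the factor that amplifies type I interferon production. Its level was 4.79 and 6.89 TPM in Normal replicates 1 and 3, and 16.7, 45.2 and 18.2 in IC replicates 2, 3 and 4. It was 21.8, 16.1 and 16.1 TPM in IS replicates 2, 3 and 4, and 7.77, 28.7 and 8.95 in IS-HA replicates 1, 2 and 3. All hemorrhage rats exceeded both Normal rats, while IC replicate 3 and IS-HA replicate 2 stood far above the others of their groups. The change against Normal was called in IC at 2.13 (SE 0.67, adjusted p = 0.0492). It was 1.64 in IS (SE 0.66, adjusted p = 0.0586) and 1.46 in IS-HA (SE 0.66, adjusted p = 0.109), both not past the test. The 3 hemorrhage groups overlapped.

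Mx1 (ENSRNOG00000001959) encodes a dynamin-like GTPase that blocks viruses. Its level was 0.607 and 4.07 TPM in Normal replicates 1 and 3, the widest gap between control rats among the members by ratio. It was 14.6, 45.1 and 11.9 TPM in IC replicates 2, 3 and 4, and 12.1, 5.98 and 6.75 in IS replicates 2, 3 and 4. The IS-HA rats had 3.17, 16.0 and 8.26 TPM in replicates 1, 2 and 3. Every IC and IS rat stood above both Normal rats, and IS-HA replicate 1 stood between them. The log2 fold change against Normal was 3.30 in IC (SE 0.93, adjusted p = 0.0341), the largest of the members in any comparison and called. It was 1.86 in IS (SE 0.89, adjusted p = 0.103) and 2.07 in IS-HA (SE 0.90, adjusted p = 0.0986), neither past the test. Without Normal replicates 1 and 3 in turn it was 2.53 and 5.13 in IC, 1.09 and 3.69 in IS, and 1.29 and 3.89 in IS-HA. Without IS-HA replicate 2 it was 1.16 in IS-HA.

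Rsad2 (ENSRNOG00000007539) encodes viperin, a radical SAM enzyme of the endoplasmic reticulum. Its level was 1.92 and 3.34 TPM in Normal replicates 1 and 3, and 8.74, 15.0 and 4.88 in IC replicates 2, 3 and 4. In IS replicates 2, 3 and 4 it was 2.51, 0.770 and 1.67 TPM, and in IS-HA replicates 1, 2 and 3 it was 2.31, 3.38 and 3.94. All IC rats therefore stood above all 8 other rats, and the IS, IS-HA and Normal groups overlapped one another. The log2 fold change against Normal was 1.79 in IC (SE 0.52, adjusted p = 0.0367) and called, but -0.66 in IS (SE 0.53, adjusted p = 0.316) and 0.28 in IS-HA (SE 0.51, adjusted p = 0.689). Rsad2 in IS was the only negative change of a tested member against Normal. These values rest on 62 to 312 reads per IC library and 10 to 31 per IS library.

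Ifit2 (ENSRNOG00000036604) and Ifit3 (ENSRNOG00000022839) encode tetratricopeptide proteins that act on viral and cellular RNA. Ifit2 was at 3.70 and 5.93 TPM in Normal replicates 1 and 3, and at 11.2, 15.2 and 6.43 in IC replicates 2, 3 and 4. It was at 9.11, 6.36 and 5.89 TPM in IS replicates 2, 3 and 4, and at 8.62, 15.8 and 10.2 in IS-HA replicates 1, 2 and 3. The IC and IS-HA rats all exceeded both Normal rats, while IS replicate 4 fell just under Normal replicate 3. The change of Ifit2 was called in IS-HA against Normal at 1.30 (SE 0.42, adjusted p = 0.0359). It was 1.12 in IC (SE 0.41, adjusted p = 0.0829) and 0.58 in IS (SE 0.41, adjusted p = 0.256), neither past the test.

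Ifit3 had 1.40 and 2.74 TPM in Normal replicates 1 and 3, and 8.89, 11.5 and 6.69 in IC replicates 2, 3 and 4. It had 16.4, 16.7 and 12.5 TPM in IS replicates 2, 3 and 4, and 3.75, 16.5 and 2.32 in IS-HA replicates 1, 2 and 3. Every IS rat stood above every IC rat, and every IC rat above both Normal rats. The IS-HA rats were split, with replicate 2 among the IS rats and replicates 1 and 3 near Normal. The change against Normal was called in IS at 2.90 (SE 0.80, adjusted p = 0.0126). It was 2.07 in IC (SE 0.78, adjusted p = 0.0890) and 1.95 in IS-HA (SE 0.79, adjusted p = 0.0789), neither past the test. Reads of Mx1, Ifit2 and Ifit3 can be shared with related genes of their families, and how the authors assigned such reads is not given in the sources used here.

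**Figure D2:**
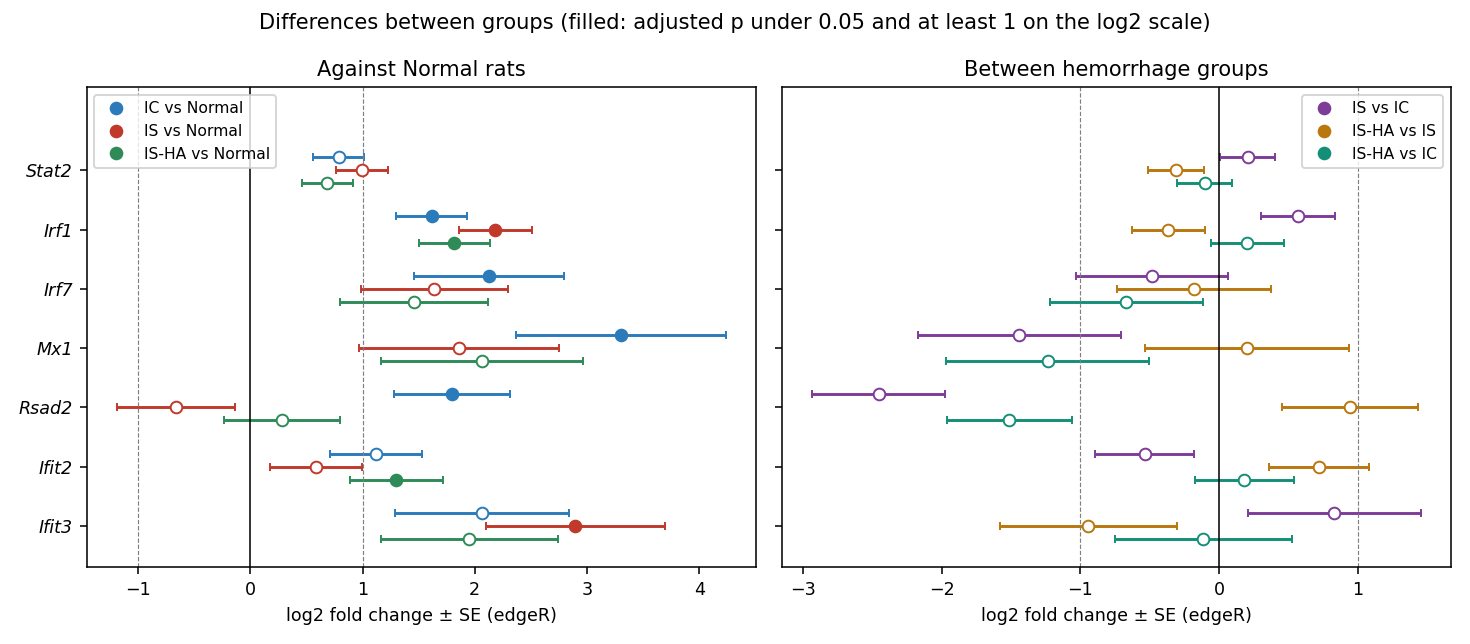
Log2 fold change with its SE from edgeR for the 7 tested members, against Normal on the left and between hemorrhage groups on the right, with filled points for called changes. The 8 calls are all against Normal and all positive, and Rsad2 in IS vs IC lies farthest from 0 on the right at -2.46.

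Calls against Normal rested on few rats. Without IC replicate 3, Irf1 alone remained called in IC against Normal, and the adjusted p was 0.170 for Irf7, 0.116 for Mx1 and 0.138 for Rsad2. Over all fits that left out rats, the log2 fold change in IC ran from 1.57 to 2.38 for Irf7, 2.51 to 5.13 for Mx1 and 1.35 to 2.16 for Rsad2. Without Normal replicate 1 it was again Irf1 alone, and without Normal replicate 3 no member was called in IC, where all genes called numbered 821 and the members' median was 2.16. Irf7 also lost its call without IC replicate 4 (adjusted p = 0.0766) or IS replicate 2, 3 or 4 (0.0628, 0.0680 and 0.0567), and Rsad2 without IC replicate 2 (0.0578) or IS-HA replicate 3 (0.0510). Without IS-HA replicate 2, by contrast, 6 members were called in IC against Normal, with Ifit2 (adjusted p = 0.0189) and Ifit3 (0.00133) added, and all genes called numbered 2995 in place of 2138.

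In IS against Normal, Ifit3 lost its call without Normal replicate 1 (adjusted p = 0.0885) or Normal replicate 3 (0.0572), while its log2 fold change ran from 2.54 to 3.37 with rats left out. Stat2 passed the fold cutoff without IS replicate 2 (1.05), IS replicate 3 (1.06) or Normal replicate 3 (1.10). Irf7 gained a call in IS without IC replicate 3 (adjusted p = 0.0497) or IS-HA replicate 1, 2 or 3 (0.0398, 0.00448 and 0.0496). In IS-HA against Normal, Ifit2 lost its call without IS-HA replicate 2 (adjusted p = 0.0817), Normal replicate 1 (0.188), Normal replicate 3 (0.104), IC replicate 2 (0.0512) or IS replicate 3 (0.0525). The log2 fold change of Ifit2 there ran from 0.84 to 1.60 with rats left out. Without IS-HA replicate 1, Irf7 (adjusted p = 0.0465), Mx1 (0.0426) and Ifit3 (0.0403) gained calls, and Ifit3 did so without IS-HA replicate 3 (0.0255). Without IS-HA replicate 2 the log2 fold change in IS-HA was 0.45 for Ifit3 and 0.39 for Irf7.

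Where the groups did not overlap, the counts were set beside the share of all tested genes that did the same in TPM. Every IC rat exceeded both Normal rats for 7 of 7 members, as for 34.6% of all genes tested. This held for 5 members in IS against 37.2% of all genes, the exceptions being Rsad2 and Ifit2 (6 in TMM-scaled CPM, with Ifit2 included). It held for Stat2, Irf1, Irf7 and Ifit2 in IS-HA, against 33.3% of all genes.

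The comparison of IS with IC asks how the genes differed between severe and common hemorrhage. No member was called by edgeR, where 0% of all genes were called in either direction, although 1653 genes were higher and 1845 lower at an unadjusted p under 0.05. Among the members, Rsad2 alone had an unadjusted p under 0.05. Rsad2 had a log2 fold change of -2.46 (SE 0.48, adjusted p = 0.143), with mean levels of 1.65 ± 0.87 TPM in IS and 9.54 ± 5.12 in IC (SD, n = 3 each) and no overlap. DESeq2's Wald test called Rsad2 alone among the members, at -2.44 with an adjusted p of 0.000507, where it called 1.6% of all genes lower. The edgeR fit without IS-HA replicate 2, a rat outside this comparison that enters through the shared spread, also called it at -2.46 (adjusted p = 0.0220), along with 3.87% of all genes called lower. Over all alternatives the log2 fold change ran from -2.85 to -1.93 and the adjusted p from 0.000507 to 0.516.

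The other members had log2 fold changes of both signs between these groups. Mx1 was at -1.44 (SE 0.73, adjusted p = 0.262), Ifit2 at -0.54 (SE 0.36, adjusted p = 0.372) and Irf7 at -0.49 (SE 0.55, adjusted p = 0.586). Ifit3 was at 0.83 (SE 0.62, adjusted p = 0.418), Irf1 at 0.57 (SE 0.26, adjusted p = 0.230) and Stat2 at 0.21 (SE 0.20, adjusted p = 0.520). With rats left out, Mx1 ran from -1.75 to -0.65, Ifit2 from -0.76 to -0.27, Irf1 from 0.30 to 0.77 and Stat2 from 0.081 to 0.42. In TPM, Ifit3 was higher in every IS rat, as were 15.4% of all genes, and Rsad2 was lower in every IS rat, as were 18% of all genes. Mx1 overlapped in TPM but was lower in every IS rat in TMM-scaled CPM, for which no share of all genes was taken. The median of the 7 members was -0.49, beside 0.00 over all genes. Without IC replicate 3 Irf7 changed sign to 0.068, and so did the members' median, which was then that of Irf7.

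The comparison of IS-HA with IS asks what differed after aspiration. No member was called by edgeR or by DESeq2, and 0 members had an unadjusted p under 0.05 in the edgeR test, beside 879 genes higher and 529 lower of all those tested. Called genes made up 0.00635% of all genes in the higher and 0% in the lower direction. Ifit3 had the lowest value, -0.94 (SE 0.64, adjusted p = 0.640), and Rsad2 the highest, 0.94 (SE 0.49, adjusted p = 0.569). Ifit2 was at 0.72 (SE 0.36, adjusted p = 0.563), Mx1 at 0.20 (SE 0.74, adjusted p = 0.951), Irf7 at -0.18 (SE 0.56, adjusted p = 0.938) and Irf1 at -0.37 (SE 0.27, adjusted p = 0.660). The members' median was -0.18, beside 0.05 over all genes, and it was 0.19, -0.55 and 0.12 without IS-HA replicates 1, 2 and 3 in turn.

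Several of these values depended on IS-HA replicate 2. Without it Ifit3 was called lower in IS-HA than in IS, at -2.45 (adjusted p = 0.0342), as were 0.541% of all genes, Irf7 moved to -1.26 and Mx1 changed sign to -0.70. Without both IC replicate 3 and IS-HA replicate 2, a fit added once the values were known, Irf7 was called as well (-1.26, adjusted p = 0.0476). In IS-HA against IC, no member was called by either edgeR or DESeq2, where 0% of all genes were called by edgeR. Rsad2 was the 1 member with an unadjusted edgeR p under 0.05, at -1.51 (SE 0.45, adjusted p = 0.841), and every IS-HA rat stood below every IC rat in its TPM, as for 3.49% of all genes. At that unadjusted p, 407 genes were higher and 375 lower of all those tested.

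**Figure D3:**
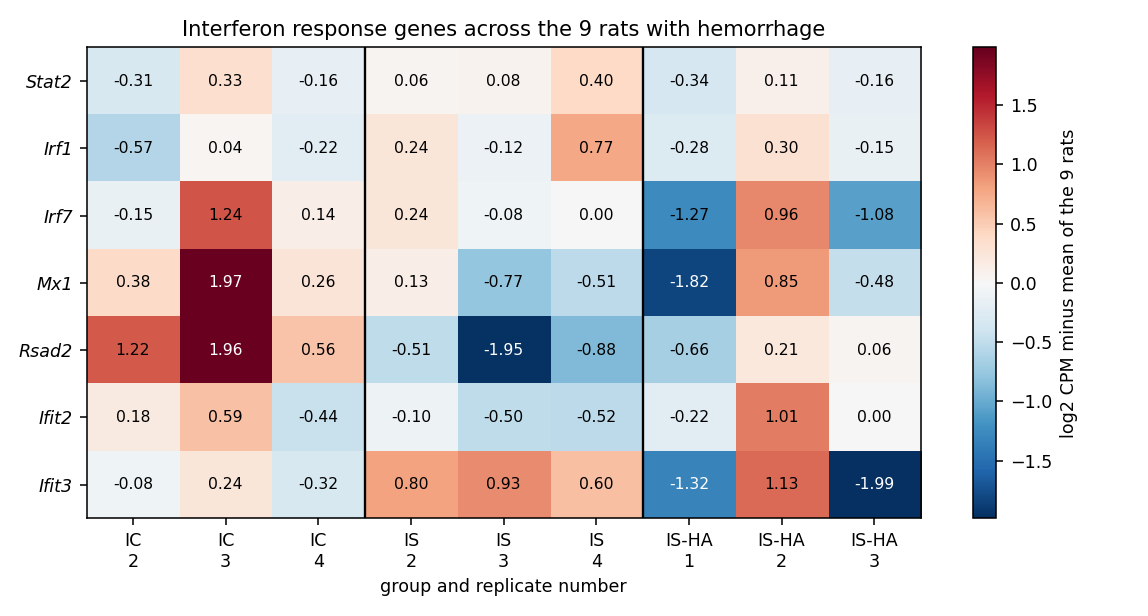
Log2 CPM of each tested member, scaled by TMM and centred on the mean of the 9 hemorrhage rats, by group and replicate. Columns IC 3 and IS-HA 2 are above 0 in all 7 rows, and the row of Rsad2 separates IC from IS, from 0.56 or more to -0.51 or less.

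The variation within groups was shared by many members. IC replicate 3 had the highest TPM of the IC rats for 7 of 7 members and of all 11 rats for 4, namely Stat2, Irf7, Mx1 and Rsad2. IS-HA replicate 1 was the lowest IS-HA rat for 6 members. The share of all genes with such ranks was not taken, so these ranks are not shown to be particular to the members. The mean of the centred log2 values over the 7 members was 0.91 in IC replicate 3 and 0.65 in IS-HA replicate 2, against -0.84 in IS-HA replicate 1, -0.54 in IS-HA replicate 3 and -0.35 to 0.12 in the other 5 hemorrhage rats. Over the 9 rats the centred values of Stat2 ran from -0.34 to 0.40 and those of Irf1 from -0.57 to 0.77, while Mx1 ran from -1.82 to 1.97 and Rsad2 from -1.95 to 1.96, ranges that also hold the differences between groups.

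IC replicate 3 and IS-HA replicate 2 stood at opposite ends of depth, as the largest and the smallest library. Summed TPM of 12 striatal neuron markers was 3327 in IC replicate 3, the lowest of its group against 6312 and 6544, and 2631 in IS-HA replicate 2, between 2386 and 4268. Summed TPM of 8 neutrophil markers was the highest of the group in both, at 480 in IC replicate 3 against 180 and 336, and at 1107 in IS-HA replicate 2 against 275 and 378. The sums of 7 monocyte markers, 1358 and 1307, and of 10 T and NK cell markers, 143 and 220, were also the highest of their groups in these 2 rats. Lyz2 alone made up 1181 and 1177 TPM of the monocyte sums and Cd8a 128 and 191 TPM of the T and NK cell sums. Among the 7 monocyte markers, IC replicate 3 was the highest of its group for 5 and the lowest for 0. IS-HA replicate 2 was the highest of its group for 4 of them and the lowest for 2. Among the 10 T and NK cell markers, IC replicate 3 was the highest for 5 and the lowest for 2, and IS-HA replicate 2 the highest for 9 and the lowest for 0. The sum of 12 microglia and macrophage markers was 3107 in IC replicate 3 against 2335 and 3004, and 5018 in IS-HA replicate 2 against 3027 and 3266. In IS-HA replicate 2 the microglial list was split, with 6 markers, among them C1qa, C1qb and Tyrobp, at their highest of the group and 6, among them Itgam, Cx3cr1 and P2ry12, at their lowest. Markers of other cells were also high in IC replicate 3, the highest IC rat for 7 of 7 oligodendrocyte and 6 of 7 dendritic cell markers. IS-HA replicate 2 was the highest of its group for 0 of 7 and 2 of 7 of these. Summed TPM of 7 endothelial markers was the highest of the group in both rats, at 230 and 249. Among these markers IC replicate 3 was the highest of its group for 4 and the lowest for 0. IS-HA replicate 2 was the highest for 2 and the lowest for 4, with Cldn5 alone at 161 TPM of its sum. The part of cell makeup and depth in these results was not tested.

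Markers also differed between the groups. The 12 microglia and macrophage markers summed to 278 to 394 TPM in Normal, 2335 to 3107 in IC, 4116 to 5323 in IS and 3027 to 5018 in IS-HA. Of them, 11, 10 and 11 were called higher in IC, IS and IS-HA than in Normal, beside 10.9%, 18.8% and 15.1% of all genes. The 7 monocyte markers summed to 51.7 to 59.0 TPM in Normal, 544 to 1358 in IC, 1199 to 3789 in IS and 827 to 1307 in IS-HA. The 12 striatal neuron markers, which marked the tissue in every rat, summed to 8263 to 8500 TPM in Normal, 3327 to 6544 in IC, 1594 to 4142 in IS and 2386 to 4268 in IS-HA. The 8 neutrophil markers summed to 180 to 480 TPM in IC and 703 to 1201 in IS, and the 10 T and NK cell markers found to 48.2 to 143 and 181 to 495. The microglial, neutrophil and T and NK cell sums were thus higher in every IS rat than in every IC rat, whereas the monocyte sums overlapped. These sums rest on a few genes. Of all genes tested, 15.4% were higher and 18% lower in TPM in every IS rat than in every IC rat. Beside that share, 4 of the 8 neutrophil markers were higher in every IS rat than in every IC rat. Of the single microglial markers 5 of 12 were higher in every IS rat than in every IC rat, and P2ry12 and Tmem119 were lower in every one, at 29.1 to 44.3 against 46.9 to 78.7 TPM and 17.3 to 23.2 against 25.5 to 43.3 TPM. In the T and NK cell sums Cd8a made up 160 to 445 TPM in IS and 38.8 to 128 in IC. Single T and NK cell markers were higher in every IS rat than in every IC rat for 5 of 10, and lower for 0. Among the 5 were Cd3g, at 2.75 to 3.60 against 0.765 to 1.39 TPM, and Ncr1, at 1.19 to 1.75 against 0.0818 to 0.632 TPM. Cd3e, a defining T-cell gene, stayed under 1 TPM in these rats and Cd3d overlapped. Nkg7, Gzmb and Prf1 held too few reads to be tested, at most 8, 4 and 7 in any library. Whether Cd8a marked T or NK cells here was not tested. Beside these, the members' log2 fold changes of IS against IC had both signs, from -2.46 for Rsad2 to 0.83 for Ifit3, and the part of these cells in them was not tested.

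The genes around the members in the pathway were read from 7 lists. Of 12 interferon ligands, 8 were found and 0 could be tested. The highest count of any ligand was 3 reads, for Ifne in IS-HA replicate 3, Ifnb1 had 2 reads and Ifng 1 read over all 11 libraries, and Ifna1, Ifna4, Ifnk, Ifnl1 and Ifnl3 were listed at 0. Ifne had 11 reads over the 11 libraries, above the floor of 3 reads over all of them, and the other ligands found were under it.

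The counts for each list stand beside 10.9%, 18.8% and 15.1% of all genes called higher in IC, IS and IS-HA. Of 8 tested receptors and Janus kinases, 2 rose in IC, 4 in IS and 2 in IS-HA against Normal, and 0 fell. Ifngr1 and Ifngr2, the chains of the interferon gamma receptor, changed by 2.94 (adjusted p = 6.7e-05) and 1.90 (adjusted p = 0.000226) in IS against Normal. Ifnar2, a chain of the type I receptor, changed by 1.43 in the same comparison (adjusted p = 0.00115). Of 8 tested signal transducers and other IRFs, 3 rose in IC, 4 in IS and 3 in IS-HA. Irf8 and Irf5, transcription factors of myeloid cells, were at 3.09 (adjusted p = 5.8e-05) and 2.46 (adjusted p = 9.4e-05) in IS, and Ikbke, a kinase that activates IRFs, was at 2.46 (adjusted p = 0.00335).

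Of 11 tested nucleic acid sensors and adaptors, 10 rose in IC, 9 in IS and 10 in IS-HA. Zbp1, a sensor of Z-form nucleic acid, was at 3.60 in IS (adjusted p = 0.0078), Cgas, the cytosolic DNA sensor, at 2.65 (adjusted p = 0.00301), and Tlr7, a receptor for single-stranded RNA, at 2.34 (adjusted p = 0.000304). Zbp1 lost its call without Normal replicate 1 (adjusted p = 0.0617), while its change ran from 3.07 to 4.48 with rats left out. Cgas rested on 4 reads in each Normal library. Of 39 tested genes in the list of other type I interferon-induced genes, 28 rose in IC, 26 in IS and 23 in IS-HA, with 0 lower. Ifitm1, which restricts virus entry, went from 2.54 and 4.08 TPM in Normal to 208 to 758 in IS, a log2 fold change of 6.97 (adjusted p = 0.000367). Ddx60, a helicase of the antiviral response, was at 4.30 (adjusted p = 0.00287) on 3 and 4 reads in Normal. Oas3, an oligoadenylate synthetase, had 0 reads in both Normal rats and 23 over the IS rats, at least 9.39-fold higher against a floor of 3 reads over the group.

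Of 15 tested type II interferon-induced genes, 13 rose in IC, 13 in IS and 14 in IS-HA. Psmb8, an immunoproteasome subunit, was at 4.06 in IS (adjusted p = 0.000256) and Cxcl11, a T-cell chemokine, at 3.74 (adjusted p = 0.00297). Cxcl11 rested on 6 and 1 reads in the Normal rats and ran from 2.95 to 5.45 with rats left out. Ciita, the master regulator of MHC class II genes, had 2 and 0 reads in the Normal rats and 35 to 54 in the IS rats. Among 10 inhibitors, 3 rose in IC, 4 in IS and 3 in IS-HA, including Socs3 at 6.57 (adjusted p = 3.1e-05), Ptpn6 at 4.04 (adjusted p = 3.9e-05) and Socs1 at 2.18 (adjusted p = 0.00496) in IS. Both SOCS proteins block Janus kinases, and Ptpn6 encodes a phosphatase of blood cells. Socs1 lost its call without Normal replicate 3 (adjusted p = 0.0627), while its change ran from 1.70 to 2.89 with rats left out. The 91 tested genes of these lists had medians of 1.78 in IC, 1.67 in IS and 1.55 in IS-HA for the log2 fold change against Normal, beside member medians of 1.79, 1.64 and 1.46, those of IS and IS-HA moving without single rats as given earlier. With Oas3 at its lower bound these medians of the 91 genes were 1.78, 1.67 and 1.55.

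**Figure D4:**
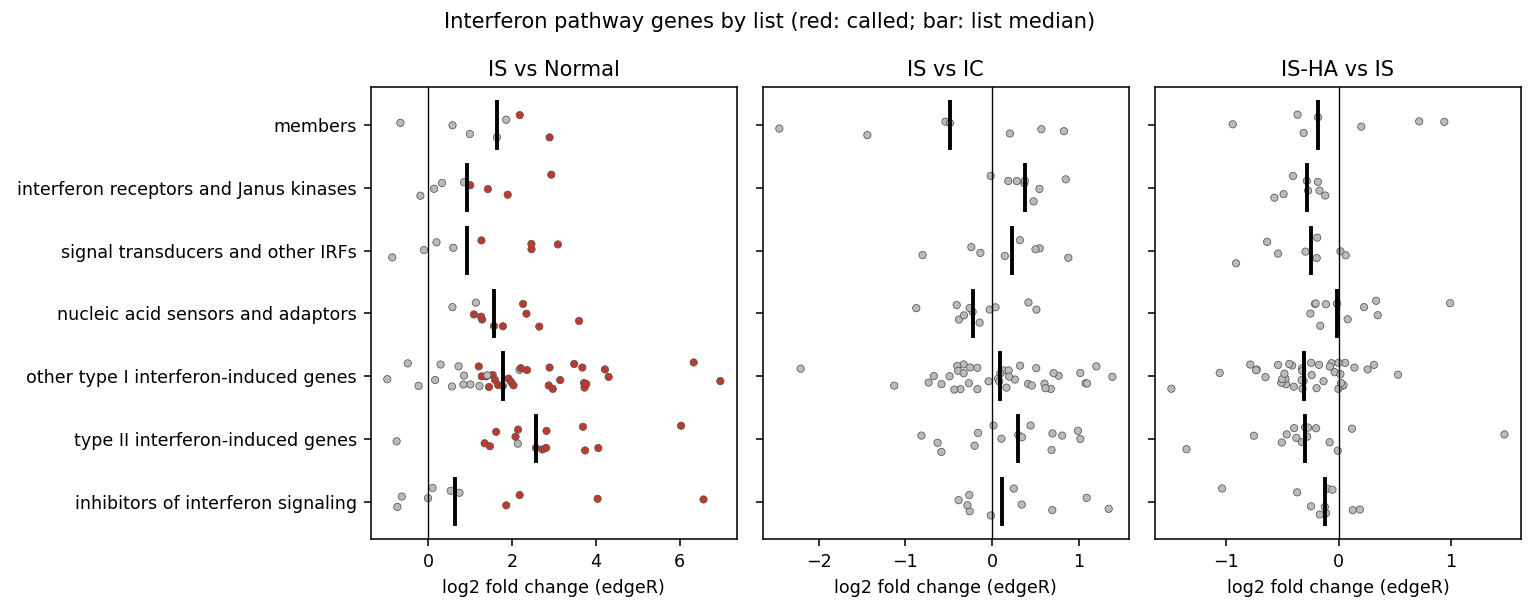
Log2 fold change of each tested gene (points, with called genes in red) and the median of each list (bars) for the members and 6 lists in IS vs Normal, IS vs IC and IS-HA vs IS. Called genes are seen only against Normal, and on the other panels no point is red.

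Between hemorrhage groups, 0 of these 91 genes were called by edgeR. In IS against IC, 22 of the 91 had an unadjusted p under 0.05, beside 1653 genes higher and 1845 lower of all 15742 tested. DESeq2 called Mx2 lower and Socs3 higher in IS, where it called 349 genes lower and 261 higher of 21857. Socs3 was at 1.35 (SE 0.30, adjusted p = 0.143) in the edgeR fit. Mx2, the paralog of Mx1, was at -1.13 (SE 0.30, adjusted p = 0.147) in the edgeR fit, and Oas2, another oligoadenylate synthetase, at -2.21 (SE 0.69, adjusted p = 0.156). Mx2 and Oas2 were chosen after their values were seen, as genes low in IS beside Rsad2. The list of type I interferon-induced genes as a whole had 22 positive and 17 negative values and a median of 0.10.

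In IS-HA against IS, 7 of the 91 genes had an unadjusted p under 0.05, beside 879 higher and 529 lower of all 15742 tested. Of the 91, 70 had a negative and 21 a positive log2 fold change, and the median was -0.21, beside 0.05 over all genes. Negative values were also held by 10 of 12 microglia and macrophage markers (median -0.17) and 7 of 7 monocyte markers (-0.87). The same held for 6 of 7 tested neutrophil markers (-0.65) and 6 of 7 tested T and NK cell markers (-1.05). The part of these cells in the values was not tested. Ddx60 was at -1.49 (adjusted p = 0.551), Cxcl11 at -1.36 (adjusted p = 0.551), Oas1i at -1.06 (adjusted p = 0.680) and Socs3 at -1.04 (adjusted p = 0.508). Cxcl10, a chemokine for T cells, was at 1.48 (adjusted p = 0.575), with 3.85, 38.0 and 4.87 TPM in IS-HA replicates 1, 2 and 3, and it changed sign to -0.62 without IS-HA replicate 2. Without that rat Oas1i, Oasl and Psmb8 were called lower in IS-HA, at -2.98 (adjusted p = 0.0406), -2.03 (adjusted p = 0.0416) and -1.06 (adjusted p = 0.0491), Oasl being named after its value was seen, in a fit that called 0.541% of all genes lower and 2.48% higher. Tlr9, the receptor for CpG DNA, was at 1.00 (adjusted p = 0.563). Ikbke, Irf8, Ifnar2, Ifngr1 and Socs1 were at -0.91, -0.64, -0.57, -0.49 and -0.37, and Cgas was at 0.35, with adjusted p of 0.540 to 0.800. Leaving out rats moved Ikbke from -1.29 to -0.31, Irf8 from -0.82 to -0.32, Ifnar2 from -0.74 to -0.34 and Ifngr1 from -0.76 to -0.29. Likewise Socs1 ran from -0.67 to -0.15, Cgas from 0.055 to 0.53 and Ddx60 from -2.04 to -0.88.

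Outside the lists, the genes whose pattern over the 9 hemorrhage rats was closest to the mean of the 7 members were Adam1a, Rig1, Kif19, ENSRNOG00000068945 and RT1-S3. Closeness was the root mean square distance between centred log2 CPM, which was 0.245, 0.257, 0.292, 0.299 and 0.311 for these genes. Among the members it ran from 0.307 for Irf7 to 0.884 for Rsad2. RT1-S3 is a class Ib gene of the rat major histocompatibility complex. ENSRNOG00000068945 was low, at -1.55 to 0.33 log2 CPM over the 9 rats. It stood above all of them in Normal replicate 3, at 0.58. When all 11 rats were used, 2 of the 5 names were kept.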

How the data were processed

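Poly(A) RNA of the striatum was measured by stranded, paired-end sequencing in 11 rats, 3 each of IC, IS and IS-HA and 2 of Normal. Unnormalized and unfiltered counts of reads per gene were deposited by the authors, together with TPM, which correct those counts for gene length and depth. The submitters' processing notes name fastp 0.20.0, HISAT2 2.1.0, SAMtools 1.9, featureCounts and the build mRatBN7.2. Columns were matched to rats by library name, and 0 columns were left unmatched. Same-numbered rats are different animals.

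edgeR 4.0.16 (R 4.3.3) was used to drop low genes (filterByExpr), scale libraries (TMM) and run a single quasi-likelihood fit to all 4 groups. P-values were adjusted by the Benjamini-Hochberg method across 15742 genes. SE is the size of the log2 fold change over the root of its F statistic. Libraries of 6701301 to 18817645 counts put the floor of 3 counts at 0.448 to 0.159 CPM. P-values measure the spread between rats.

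The genes given by name are the 9 members, from each pathway list up to 3 genes with the largest change in IS against Normal and up to 2 in IS-HA against IS, and 5 genes outside the lists with the nearest pattern. Mx2, Oas2, Oasl, the untested ligands and the cell markers are named outside this rule. The members and lists were chosen with earlier results of these data known. Alternatives were DESeq2 1.42.0 (its size factors in edgeR, and its Wald test), library size alone, TMM without hemoglobin and mitochondrial genes, no count filter, only the groups compared, limma 3.58.1 on log2(TPM + 1), each rat left out, a replicate block and no fold cutoff. A fit without IC replicate 3 and IS-HA replicate 2 was added after the values were seen. Motifs were searched in RefSeq promoters of GRCr8, a build other than that of the counts, and 7 of 9 members had an entry. Plots were drawn with matplotlib 3.10.9.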

Additional observations from a re-analysis of the deposited data

How the results depend on the processing

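Limits are the 2 Normal rats, which enter every comparison with Normal, the reads per member, down to 10 for Rsad2, and IS-HA replicate 2, without which all genes called went from 0 to 964 in IS against IC and from 1 to 481 in IS-HA against IS. With fits that left out single rats, or IC replicate 3 and IS-HA replicate 2 together, the members called numbered 0 to 6 in IC against Normal (4 in the main fit), 1 to 4 in IS (2), 1 to 5 in IS-HA (2), 0 to 1 in IS against IC (0) and 0 to 2 in IS-HA against IS (0). The other interferon pathway genes called numbered 31 to 63 in IC against Normal (59), 50 to 64 in IS against Normal (60), 34 to 55 in IS-HA against Normal (55), 0 to 4 in IS against IC (0) and 0 to 3 in IS-HA against IS (0). All genes called ranged from 821 to 2995 in IC against Normal (2138), 3633 to 6014 in IS (5633), 1529 to 4149 in IS-HA (3596), 0 to 1070 in IS against IC (0), 0 to 481 in IS-HA against IS (1) and 0 to 1 in IS-HA against IC (0).

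In IC against Normal, DESeq2's Wald test gave 6 of the 8 members it tested, and the fit of only the groups compared gave 6 of 7. These 2 fits called 1886 of 21857 and 2023 of 15742 genes higher. DESeq2's size factors gave 3 of 7 members there, with 1675 of 15742 genes called higher. Library size alone and the fit of only the groups compared each gave 4 of 7 members in IS against Normal. They called 3331 and 3050 of 15742 genes higher. In IS-HA against Normal, DESeq2's Wald test gave 4 of 8 members, beside 2508 of 21857 genes called higher. There limma, the fit of only the groups compared and the replicate block gave 1 of 7 members each. Those fits called 2020, 1591 and 1657 of 15742 genes higher. DESeq2's Wald test gave 610 genes, 1 member and 2 other interferon genes in IS against IC, 62 genes in IS-HA against IS and 18 in IS-HA against IC. In IS-HA against IS, DESeq2's size factors, library size alone, limma, only the groups compared and the replicate block gave 0 genes. Only the groups compared gave 2222 genes in IS-HA against Normal and 1 in IS-HA against IC. In IS against Normal, 6 members were higher in every rat in TMM-scaled CPM and 5 in TPM, as were 37.2% of all genes in TPM. In IS against IC, 1 member was higher and 2 lower in CPM, beside 1 and 1 in TPM. Of all genes, 15.4% were higher and 18% lower there in TPM. In IS-HA against IS, 0 members stood apart in CPM and 1 was lower in TPM, as were 6.37% of all genes in TPM. No share of all genes was taken in CPM.

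The replicate numbers did not pair the rats: the mean correlation of same-numbered deviations was 0.03 for IS and IC, -0.28 for IS-HA and IS, -0.16 for IS-HA and IC and -0.01 for IS-HA and Normal. With the replicate block, 2241 genes were called in IS-HA against Normal, and Stat2 changed sign to 0.0098 in IS-HA against IC. IC and IS against Normal share 1 number and were not tested with the block, which was run for groups that share at least 2.

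Directions that turned belonged to changes that were not called. Over the fits leaving out rats, Rsad2 ran from -0.011 to 0.65 in IS-HA against Normal, and Irf7 from -0.74 to 0.070 in IS against IC. In IS-HA against IS, Irf7 ran from -1.26 to 0.19, Mx1 from -0.70 to 0.66 and Cxcl10 from -0.62 to 2.00, and Mx1 was -0.038 with limma. In IS-HA against IC, Stat2 ran from -0.23 to 0.11, Ifit2 from -0.29 to 0.45 and Ifit3 from -1.62 to 0.35. The cause of these changes was not tested.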
